A study of Mus musculus with 15 samples.

Results

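The probes described here lie on the distal part of mouse chromosome 12, on both sides of the imprinted domain that holds the miR-379/miR-410 cluster. They were taken by position alone: every non-control probe between 91.0 and 114.4 Mb of the mm9 build, without those from 110.0 to 111.6 Mb, which cover the imprinted domain, and without those whose gene name begins with Serpina. This gave 363 of 55681 probes, of which 232 lie on the centromeric and 131 on the telomeric side of the domain. A further 156 probes of the domain and 33 Serpina probes inside the window were left out. Names were those in the files, so 1 probe that the reference table now names Serpina16 stayed in, and it was not tested. The arrays were Agilent 1-colour expression arrays hybridised with liver RNA of C57BL/6J pups at postnatal day 1, 1 array per pup. Wild-type pups (n = 5) had blood glucose of 50 to 72 mg/dl. Their KO littermates carry a deletion of the cluster on the maternal chromosome. The KO group titled normoglycaemic (n = 3) had 44 to 56 mg/dl and is called mildly hypoglycaemic in the design text. The hypoglycaemic KO group (n = 7) had 9 to 33 mg/dl. The deletion is inherited through the germ line and is not restricted to the liver. The sources used here give neither its end points, nor the embryonic stem cells used, nor the number of backcrosses. Nothing in the labels assigns pups to litters, so p-values measure only the spread between these samples.

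The Dlk1-Dio3 domain is imprinted: its long noncoding RNAs and microRNAs are transcribed from the maternal chromosome, and its protein-coding genes mainly from the paternal one. Mirg is the noncoding transcript that runs through the microRNA cluster. DNA that is linked to a targeted locus is inherited together with it, and the removal of a stretch of DNA can alter transcription of neighbouring genes in cis. The question put to the flanking probes was therefore whether KO minus wild-type differences depend on the distance from the domain. The region is gene-rich and mixed in function. It holds Dicer1, the ribonuclease that cuts microRNA precursors, Sel1l, a part of the endoplasmic reticulum machinery that degrades misfolded proteins, and the kinase gene Akt1 of the insulin pathway.

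The microRNAs that give the cluster its name are shown first, with the seed, bases 2 to 8 of the mature RNA, in capitals. The sequences are RefSeq's, on GRCm38.p6.
mmu-miR-379-5p: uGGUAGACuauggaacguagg
mmu-miR-410-3p: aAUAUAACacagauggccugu
The Mirg probe, which checks the deletion, reads the plus strand at chr12:110987569-110987628 (mm9).
Mirg: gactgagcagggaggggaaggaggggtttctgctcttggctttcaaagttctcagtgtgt
The next sequences are the first 30 bases of the 60-base probes of genes that the results turn on. Evl and Ppp2r5c are among the genes nearest to the domain on either side, and the other genes are among those with small p-values described further on.
Evl: gtctgtctgtccacgcagtgcgcgttgtgt
Ppp2r5c: taaatgaattagaagaaattttagatgtaa
Dicer1: ggaatcacatcacactctgcagccttctaa
Sel1l: gcctcagatacgagagaaactatttctgga
Trmt61a: tcctactgtcatatgtcatacccgagggca
Btbd6: tcagccagagtctgaaacttgacttctcac
Ppp4r4: ttagattgtatctgtccttaatgtcaaatg
On mm9 these probes lie at chr12:109926666-109926725 (Evl), chr12:111799569-111799628 (Ppp2r5c), chr12:105926064-105926123 (Dicer1), chr12:93044963-93045022 (Sel1l), chr12:112922052-112922111 (Trmt61a), chr12:114216873-114216932 (Btbd6) and chr12:104851659-104851718 (Ppp4r4). Those of Dicer1 and Sel1l are on the minus strand and the other 5 on the plus strand. Whether a probe lies in a coding exon or a UTR was not analysed here.

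A level is the log2 of a probe's processed signal relative to the 75th percentile of its own array, and a difference is that between the mean levels of 2 groups, on the log2 scale, with its standard error. The 75th percentile of the processed signal was 663 to 912 over the 15 arrays, and 57.9% to 76.2% of the non-control spots lay well above background. No non-control spot was saturated. The hepatocyte markers had a mean level of 8.63 to 9.09 in every library of all 3 groups. The acinar markers of the pancreas had a mean level of −2.45 to 2.5 in wild-type libraries, −2.05 to 5.5 in the normoglycaemic group and −2.68 to 2.67 in the hypoglycaemic group, with the highest values in wild-type replicate 2, normoglycaemic KO replicate 2 and hypoglycaemic KO replicate 3. Their part in the results was not tested. Mirg was at 1.07, 1.6, 0.88, 1.39 and 1.21 in wild-type replicates 1 to 5, and normoglycaemic KO replicates 1 to 3 had −2.8, −2.76 and −2.68. Of the hypoglycaemic KO libraries 6 ranged from −3.02 to −1.23, and the level was 0.66 in the library labelled hypoglycaemic KO replicate 2. That library thus lay below the wild-type range but above every other KO library, against its label. Against wild type, Mirg was lower by 15.7-fold in the normoglycaemic group (difference −3.98, 2-sided exact permutation test, p = 0.0179, the smallest possible with 56 splits). In the hypoglycaemic group it was lower by 8.29-fold (−3.05, exact p = 0.00253). Without the library labelled hypoglycaemic KO replicate 2 the latter was 11-fold (−3.46, exact p = 0.00216). A second Mirg probe, at chr12:110979653-110979712, read 0.33, 0.97, 0.36, 0.93 and 0.54 in wild-type and −3.72, −3.65 and −4.14 in normoglycaemic KO replicates. There the library labelled hypoglycaemic KO replicate 2 was at −0.16 and the other 6 of its group at −4.38 to −2.15, so that it again lay between wild type and the other KO libraries. At this probe the difference was −4.46 (22-fold, exact p = 0.0179) in normoglycaemic and −3.38 (10.4-fold, exact p = 0.00379) in hypoglycaemic KO livers, and −3.82 (14.1-fold) in the latter without that library.

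Of the 363 flanking probes, 288 were well above background on at least 3 of the 15 arrays and were tested, 177 on the centromeric and 111 on the telomeric side. The other 75 were not tested. Among them were all probes of Tshr, the thyrotropin receptor, of Ak7, an adenylate kinase, and of Bcl11b, a transcription factor of T cells. The tested probes include 168 probes of 128 genes with a gene symbol and 120 probes without one. A spot value was missing on some array for 13 tested members, and the fit used the remaining arrays.

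No flanking probe passed an adjusted p under 0.05 (limma, Benjamini-Hochberg over 41153 probes) in any comparison. The count was 0 of 288 for hypoglycaemic KO minus wild type, where 0.0219% of all tested probes passed, and 0 for normoglycaemic KO minus wild type, where 0.0146% did. It was also 0 for the mean of both KO groups minus wild type (0.0194% of all probes) and for hypoglycaemic minus normoglycaemic KO (0.017%). With at most 9 probes called in a comparison over the whole array, a count of 0 among 288 probes is what the share over all probes gives. The smallest adjusted p among the members was 0.102 for hypoglycaemic KO and 0.964 for normoglycaemic KO minus wild type.

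At an unadjusted p under 0.05, 54 members (18.8%) differed between hypoglycaemic KO and wild type, beside 17.3% of all tested probes. Of these, 24 were higher in KO livers (9.34% of all probes were) and 30 were lower (7.93% of all probes). In normoglycaemic KO livers 14 members (4.86%) were below that p, beside 4.85% of all probes. Here 9 were higher (background 3.24%) and 5 lower (background 1.61%). For the mean of both KO groups 24 members (8.33%) were below it, beside 6.48%. These were 12 higher (background 3.76%) and 12 lower (background 2.72%). Between the KO groups, which both carry the deletion, 43 members (14.9%) were below it, beside 17.6% of all probes, with 17 higher (background 8.35%) and 26 lower (background 9.23%) in hypoglycaemic KO livers. The members' share was thus within 2 percentage points of that of all probes in the 3 comparisons with wild type and lower in the fourth. The median of the absolute difference was 0.174 over the members and 0.17 over all probes for hypoglycaemic KO, and 0.119 and 0.122 for the mean of both KO groups. Without the library labelled hypoglycaemic KO replicate 2 the shares were 19.8% of members and 16.9% of all probes for hypoglycaemic KO, and 5.56% and 4.91% for normoglycaemic KO. Between the KO groups both shares were 17.4% without the same library. Without normoglycaemic KO replicate 2 the shares of members and of all probes were 3.12% and 2.71% for normoglycaemic KO. Between the KO groups they were then 7.29% and 9.92%.

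Probes of genes with a symbol and other probes differed in these shares. In hypoglycaemic KO minus wild type 44 of 168 member probes with a gene symbol (26.2%) were below an unadjusted p of 0.05, against 20.5% of all such probes on the array. Of the 120 members without a symbol 10 were (8.33%), beside 13% of all probes without one. For normoglycaemic KO the shares were 4.76% of members with a symbol and 4.48% of all such probes. The arrays also carry 83 probes that tile 22 intervals of noncoding candidate transcripts in the flanks, 56 of which were tested. They gave 2 probes (3.57%) below that p in hypoglycaemic KO, 1 (1.79%) in normoglycaemic KO and 3 (5.36%) for the mean of both KO groups, beside 11.8%, 4.92% and 5.92% of all tested probes of such intervals on the array.

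The differences were then arranged by the distance of each probe from the nearer edge of the left-out domain. For hypoglycaemic KO minus wild type the share below an unadjusted p of 0.05 was 23.1% (6 of 26) beyond 10 Mb on the centromeric side, 22.9% (19 of 83) from 5 to 10 Mb, 15.6% (5 of 32) from 2 to 5 Mb and 19.4% (7 of 36) within 2 Mb. On the telomeric side it was 6.67% (3 of 45) within 1 Mb and 21.2% (14 of 66) beyond it. Counted from the edges of the domain, the nearest probes had the lower share in this comparison: it was 12.3% (10 of 81) within 2 Mb centromeric or 1 Mb telomeric of the domain and 21.3% (44 of 207) elsewhere. Probes of the noncoding candidate intervals, of which 2 of 56 (3.57%) were below that p, made up a larger part of the nearest probes than of the others. The shares by distance were not split by probe type, so the part of probe type in this gap was not tested. Without the library labelled hypoglycaemic KO replicate 2 the nearest probes gave 11 of 81, beside 16.9% of all tested probes. Without wild-type replicate 1 they gave 9 of 81, beside 21.7%. The count was 6 without wild-type replicate 4 and 4 on the first slide alone. The share of all probes was not taken under these last settings. Those counts thus cannot tell a shift near the domain from a shift over the whole array.

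In normoglycaemic KO livers, in which every library had Mirg far below wild type, 6.17% (5 of 81) of the nearest probes and 4.35% (9 of 207) of the others were below that p. The 5 nearest became 8 without wild-type replicate 2 and 2 without wild-type replicate 3. By bin, from the centromeric end, the counts were 0 of 26, 3 of 83, 0 of 32 and 2 of 36, and then 3 of 45 and 6 of 66 on the telomeric side. For the mean of both KO groups the counts were 7.41% (6 of 81) near and 8.7% (18 of 207) elsewhere. The 6 nearest became 3 without wild-type replicate 3 or normoglycaemic KO replicate 2, and 2 without wild-type replicate 4. The share of all probes for the mean was 4.8% without normoglycaemic KO replicate 2. Such shares were not taken without wild-type replicate 2, 3 or 4. The median signed difference of the nearest probes was −0.04 in hypoglycaemic and 0.01 in normoglycaemic KO livers. When distance was counted from the Mirg probe instead, 17 of 98 probes within 2 Mb (17.3%) and 37 of 190 others (19.5%) were below that p in hypoglycaemic KO livers. The counts were 6 of 98 (6.12%) and 8 of 190 (4.21%) in the normoglycaemic group, and 11 of 98 (11.2%) and 13 of 190 (6.84%) for the mean of both KO groups, where the share near Mirg was thus the higher one.

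**Figure D1:**
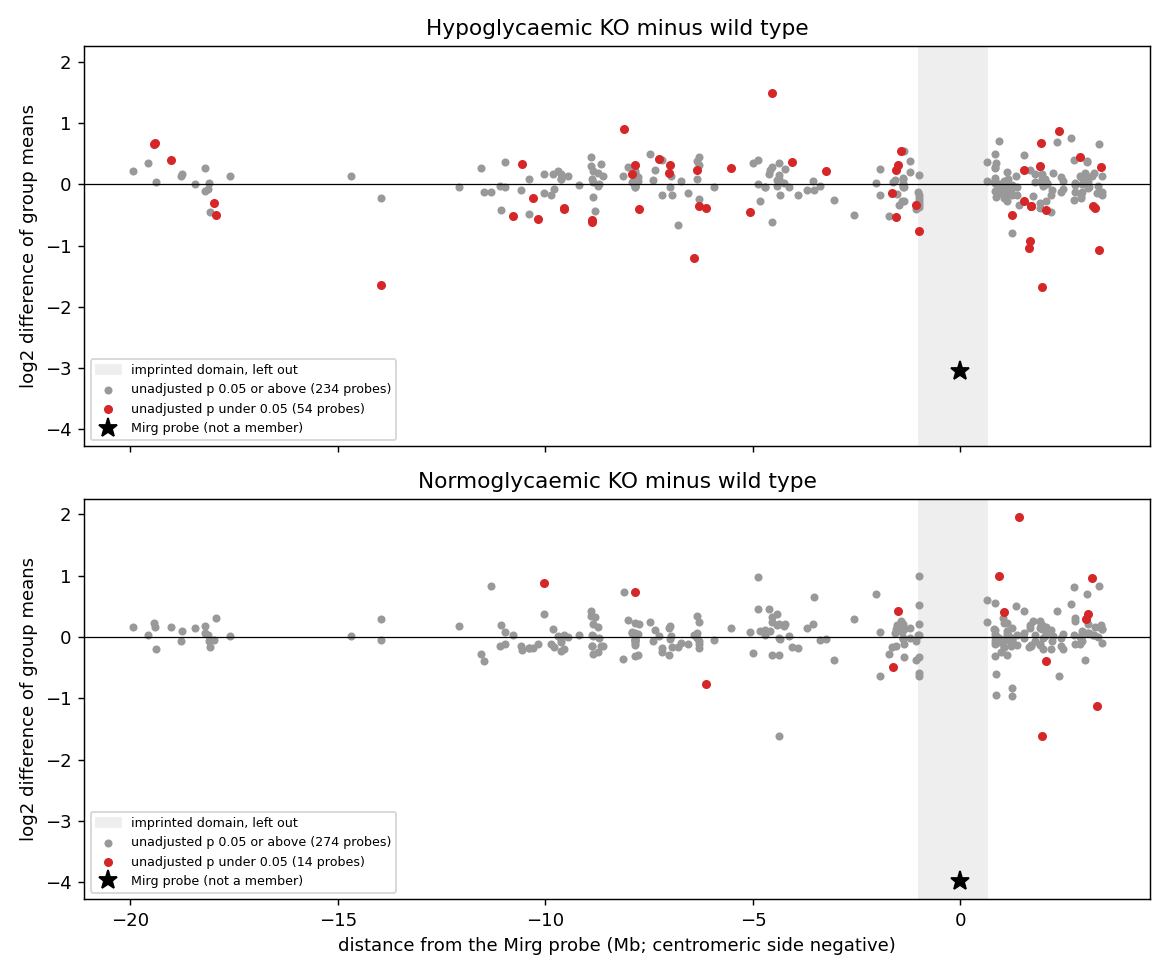
Each point is a tested flanking probe, placed by its distance from the Mirg probe in Mb (centromeric negative) and by the log2 difference of group means, for hypoglycaemic KO (top) and normoglycaemic KO (bottom) minus wild type. Red points have an unadjusted p under 0.05 (54 and 14 probes), the grey band is the left-out domain, and the star is Mirg at −3.05 and −3.98, below every member.

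Across probes the absolute difference had little rank correlation with distance from the domain. Spearman's rho was 0.04 for hypoglycaemic and −0.07 for normoglycaemic KO minus wild type over 288 probes, and −0.01 and −0.12 over the 177 centromeric and 0.13 and −0.02 over the 111 telomeric probes. These are descriptions across probes of the same 15 libraries, and several probes share a gene. The spread between replicates also did not follow the distance in one direction. The median SD of a probe over wild-type libraries was 0.26 within 2 Mb on the centromeric side, 0.36 from 2 to 5 Mb and 0.21 from 5 to 10 Mb, beside 0.26 over all probes. In hypoglycaemic KO libraries the median SD was 0.28 over both the members and all probes.

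**Figure D2:**
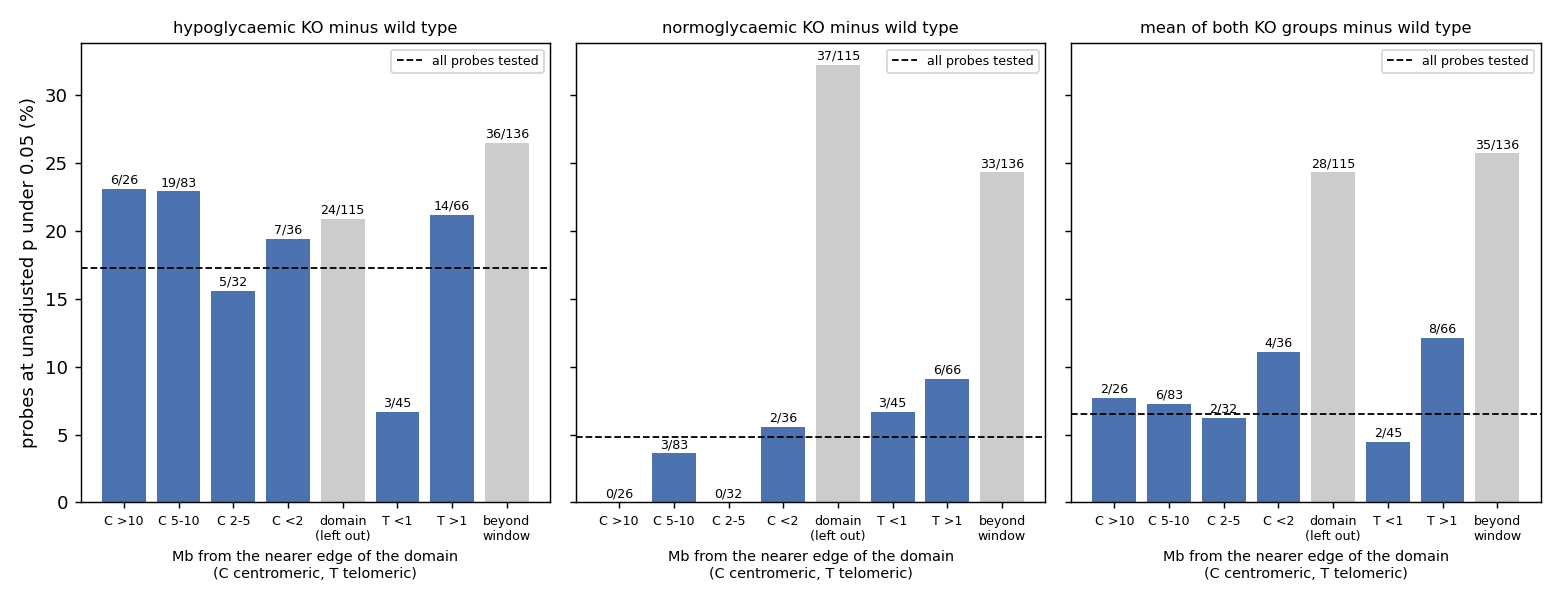
Bars give the percentage of tested probes with an unadjusted p under 0.05 by distance from the domain (blue, members) and, in grey, for the left-out domain and for the probes beyond the telomeric end of the window, with counts above each bar. The dashed line is the share over all tested probes: 17.3%, 4.85% and 6.48% from left to right.

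Outside the member set, the left-out domain and the stretch telomeric of the window had shares above those of all probes. In the left-out domain 37 of 115 probes (32.2%) were below an unadjusted p of 0.05 in normoglycaemic KO and 24 of 115 (20.9%) in hypoglycaemic KO livers. Telomeric of the window, in the last stretch of the chromosome, where the immunoglobulin heavy chain genes lie, 33 of 136 (24.3%) and 36 of 136 (26.5%) were. There, 27 of the 33 and 26 of the 36 were higher in KO livers. Centromeric of the window the shares were 5.86% (64 of 1093) and 15.8% (173 of 1093). Over the 19 autosomes, without the members, the share in hypoglycaemic KO livers ran from 15.7% on chromosome 16 to 20.7% on chromosome 19, and the members' 18.8% was passed by 2 of them. In normoglycaemic KO livers 9 of the 19 had a higher share than the members. For the mean of both KO groups 1 did, and this was the rest of chromosome 12 itself. For hypoglycaemic minus normoglycaemic KO the members' 14.9% was below the share on each of the 19, the lowest of which was 16%. Without the library labelled hypoglycaemic KO replicate 2, members and all probes both had 17.4% in that comparison. The B-lineage markers had a mean level of 1.08 to 1.63 in wild-type libraries, 1.26 to 1.74 in the normoglycaemic group and 1.07 to 1.49 in the hypoglycaemic group, and their part in the values beyond the window was not tested.

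The median of the signed deviation, in which higher and lower probes cancel, was near 0 in single libraries. This deviation of the 288 members from the mean of the wild-type libraries was −0.04 to 0.04 in wild-type libraries, 0 to 0.05 in the normoglycaemic and −0.07 to 0.07 in the hypoglycaemic KO group. Within 2 Mb on the centromeric side the ranges were −0.07 to 0.06, −0.05 to 0.13 and −0.13 to 0.08. Within 1 Mb on the telomeric side they were −0.04 to 0.02, −0.03 to 0 and −0.18 to 0.06. The groups overlapped in both stretches. The median of the absolute deviation over the members was 0.12 to 0.21 in wild-type libraries, 0.15 to 0.2 in the normoglycaemic group and 0.19 to 0.29 in the hypoglycaemic group, and over all probes it was 0.13 to 0.21, 0.16 to 0.22 and 0.18 to 0.3. The members' ranges thus lay close to those of all probes. Within 2 Mb on the centromeric side it was 0.13 to 0.23, 0.15 to 0.26 and 0.21 to 0.35, and within 1 Mb on the telomeric side 0.09 to 0.2, 0.14 to 0.22 and 0.15 to 0.28.

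**Figure D3:**
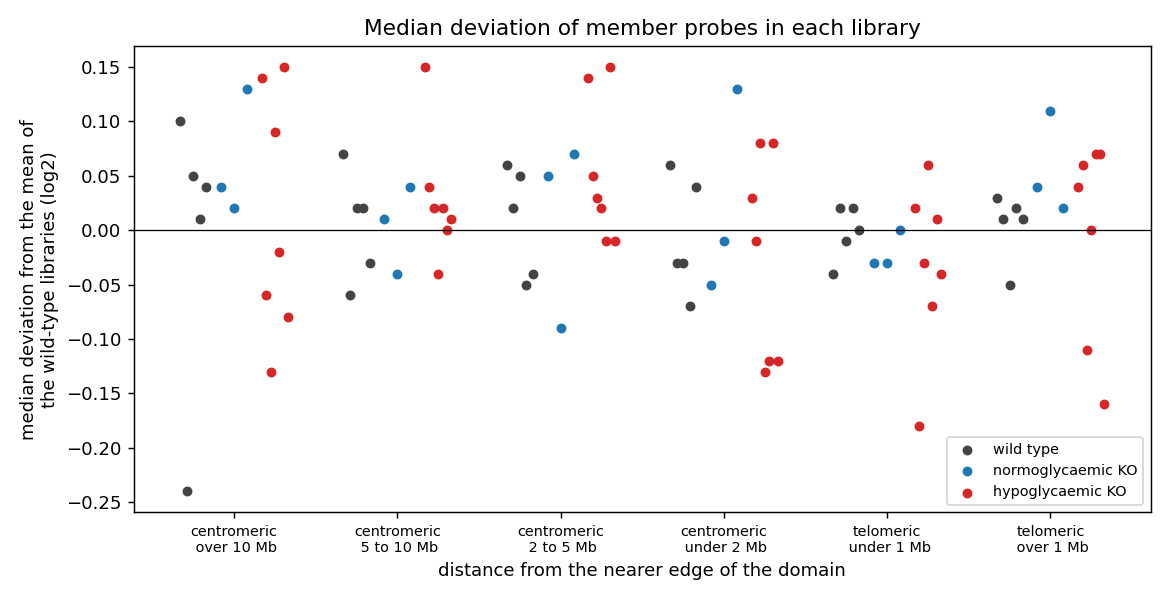
Each point is 1 library, placed by the median over member probes of its signed deviation (log2) from the mean of the wild-type libraries, in 6 classes of distance from the domain. In the class within 2 Mb on the centromeric side the hypoglycaemic KO libraries run from −0.13 to 0.08, across the wild-type range of −0.07 to 0.06.

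Nor did any tested member separate the genotypes by library. Every KO library lay on 1 side of every wild-type library for 0 of 288 members, beside 0.204% of all tested probes. Without the library labelled hypoglycaemic KO replicate 2 the count was again 0, beside 0.33%. The 7 hypoglycaemic KO libraries lay on 1 side of the wild-type libraries for 5 members (1.36% of all probes). These were Nudt14, Tnfaip2 and 1 probe of Flrt2, which were lower, and Mta1 and a probe without a gene symbol, which were higher. The 3 normoglycaemic KO libraries did so for 11 members (3.95% of all probes). Of these, probes of Ppp4r4, Wdr20 and Coa8 were lower, and Clba1, 1 of 3 probes of Ppp2r5c and 6 probes without a proper gene symbol were higher. Clba1 encodes a clathrin-binding protein and Coa8 an assembly factor of cytochrome c oxidase.

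None of the 4 genes nearest to the domain on each side passed the adjusted threshold. On the centromeric side Evl, an actin regulator of the Ena/VASP family, lay 0.07 Mb from the edge. It read 3.72, 3.87, 4.07, 4.08 and 3.71 in wild-type replicates 1 to 5, 3.81, 3.82 and 3.86 in normoglycaemic KO replicates 1 to 3, and 3.29, 3.63 and 3.85 as lowest, median and highest of the hypoglycaemic KO libraries. The normoglycaemic KO values thus lay within the wild-type range, and the hypoglycaemic KO values reached below it but overlapped, with all 7 below the wild-type mean. The difference was −0.33 ± 0.11 (SE, limma adjusted p = 0.168) for hypoglycaemic and −0.06 ± 0.14 (adjusted p = 0.994) for normoglycaemic KO, the former with an unadjusted p under 0.05. For the other 3 genes on this side the differences in hypoglycaemic and normoglycaemic KO livers were −0.4 ± 0.38 and −0.38 ± 0.48 for Degs2, an enzyme of sphingolipid synthesis, 0.2 ± 0.14 and −0.02 ± 0.18 for Eml1, a microtubule-binding protein, and 0.02 ± 0.08 and 0.15 ± 0.09 for Cyp46a1, a cholesterol hydroxylase. Their adjusted p-values were 0.503 or above.

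On the telomeric side the nearest gene was Ppp2r5c, a regulatory subunit of protein phosphatase 2A, 0.2 Mb from the edge. Its nearest probe read −1.71, −1.78, −1.76, −1.84 and −1.67 in wild-type replicates 1 to 5, −1.55, −1.67 and −1.65 in normoglycaemic KO replicates 1 to 3, and −1.88, −1.76 and −1.55 as lowest, median and highest hypoglycaemic KO value. The difference was 0.04 ± 0.08 for hypoglycaemic and 0.13 ± 0.1 for normoglycaemic KO, and the other 2 probes of the gene gave 0.05 and −0.12 for the latter. Dync1h1, the heavy chain of cytoplasmic dynein, differed by 0.01 ± 0.07 and −0.02 ± 0.08. Hsp90aa1, the inducible cytosolic HSP90 chaperone, differed by −0.14 ± 0.15 and −0.03 ± 0.18. Wdr20, which activates deubiquitinating enzymes, differed by −0.12 ± 0.18 and 0.31 ± 0.26 at its nearest probe, where the value of normoglycaemic KO replicate 3 was missing, and its other probe gave −0.09 and −0.17. For these 4 genes the adjusted p-values were 0.669 or above.

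**Figure D4:**
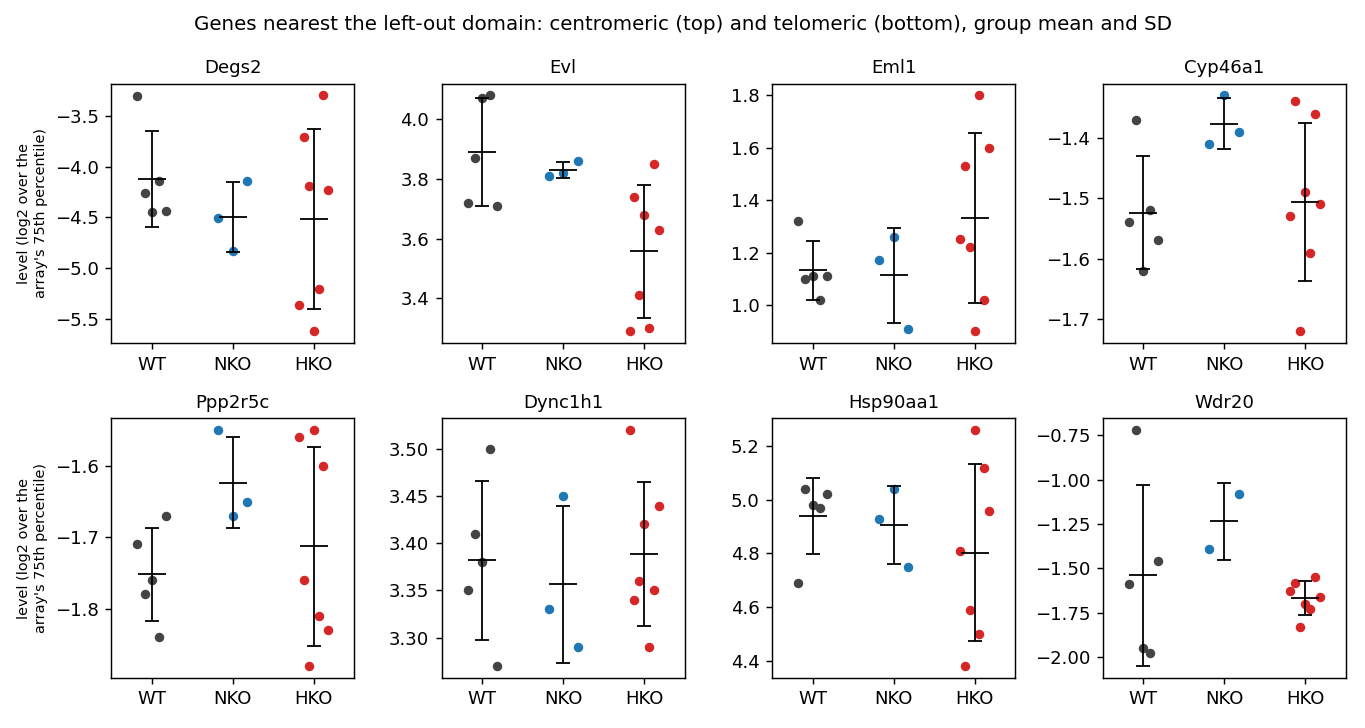
Each point is the level of 1 library (log2 over the array's 75th percentile) for the 4 genes nearest to the domain on the centromeric (top) and telomeric (bottom) side in wild-type (WT, n = 5), normoglycaemic KO (NKO, n = 3) and hypoglycaemic KO (HKO, n = 7) livers, with group mean and SD. The vertical scales differ between panels, and for Wdr20 1 normoglycaemic KO value is missing; Evl in hypoglycaemic KO runs from 3.29 to 3.85 and overlaps wild type (3.71 to 4.08).

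The members with the smallest p-values lay far from the domain as well as near it. In hypoglycaemic KO livers the highest-ranking gene above wild type was Trmt61a, the catalytic subunit of a tRNA methyltransferase, 1.32 Mb telomeric of the domain. It was at 2.84, 2.16, 1.93, 2.2 and 2.52 in wild-type replicates 1 to 5, at 2.52, 2.57 and 2.48 in normoglycaemic KO replicates 1 to 3, and at 2.73, 2.87 and 3.54 as lowest, median and highest hypoglycaemic KO value. Wild-type replicate 1 was inside the hypoglycaemic KO range and the other 4 wild-type libraries were below it. The difference was 0.67 ± 0.16, or 1.59-fold (adjusted p = 0.102). The normoglycaemic KO difference was 0.19 ± 0.2 (adjusted p = 0.978).

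Aspg, which encodes an asparaginase and lies 1.77 Mb telomeric of the domain, was at 5.26, 3.64, 4.21, 4.58 and 4.39 in wild-type and at 4.28, 3.4 and 3.69 in normoglycaemic KO livers. The hypoglycaemic KO libraries had 4.8, 5.28 and 5.73 as lowest, median and highest value. All 7 lay above all 3 normoglycaemic KO libraries, and wild-type replicate 1 alone of its group reached their range. Aspg was 1.82-fold higher than wild type in hypoglycaemic KO (0.87 ± 0.24, adjusted p = 0.128), 1.55-fold lower in normoglycaemic KO (−0.63 ± 0.3, adjusted p = 0.964) and 2.82-fold higher in hypoglycaemic than in normoglycaemic KO livers (1.49 ± 0.29, adjusted p = 0.0794). Nrxn3, a synaptic adhesion protein gene at the far centromeric end, 18.43 Mb from the domain, was at −1.96, −3.1, −2.75, −2.65 and −3.09 in wild-type, −2.38, −2.38 and −2.84 in normoglycaemic KO and −2.42, −2.04 and −1.46 (lowest, median, highest) in hypoglycaemic KO livers. Wild-type replicate 1 again lay within the hypoglycaemic KO range, above the other wild-type libraries. The hypoglycaemic difference was 0.67 ± 0.2 (adjusted p = 0.138), and the 4 tested Nrxn3 probes gave 0.21 to 0.67. Other genes higher in hypoglycaemic KO livers by this rank were Golga5, a Golgi tether (0.41 ± 0.13), Mta1, a subunit of a nucleosome-remodelling deacetylase complex (0.29 ± 0.1), Hhipl1 (0.55 ± 0.19, well above background on 2 of 5 wild-type arrays), Tmem251, which serves lysosomal enzyme sorting (0.32 ± 0.11), and Dio2, the deiodinase that activates thyroid hormone (0.39 ± 0.15, well above background on 3 of 5 wild-type arrays). A second probe of Hhipl1 gave −0.27. None had an adjusted p below 0.147.

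Among the genes lower in hypoglycaemic KO livers was Dicer1, 4.07 Mb centromeric of the domain. It was at 0.74, 1.16, 0.56, 0.74 and 0.98 in wild-type replicates 1 to 5, at 0.89, 0.92 and 0.97 in normoglycaemic KO replicates 1 to 3, and at 0.05, 0.4 and 0.61 as lowest, median and highest hypoglycaemic KO value. The hypoglycaemic KO libraries lay below all 3 normoglycaemic KO libraries and overlapped wild type. Dicer1 was 1.37-fold lower than in wild type (−0.46 ± 0.12, adjusted p = 0.106), and the difference in normoglycaemic KO livers was 0.09 ± 0.15. Sel1l, 16.96 Mb centromeric of the domain, was at 1.74, 1.69, 1.24, 1.33 and 1.6 in wild-type, 1.8, 1.97 and 1.74 in normoglycaemic KO and 0.61, 1.05 and 1.35 (lowest, median, highest) in hypoglycaemic KO livers. The hypoglycaemic KO libraries again lay below all normoglycaemic KO libraries and overlapped wild type. Sel1l in hypoglycaemic KO livers was 1.41-fold below wild type (−0.5 ± 0.13, adjusted p = 0.111) and 1.76-fold below normoglycaemic KO (−0.81 ± 0.15, adjusted p = 0.0794).

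Btbd6, which encodes an adaptor of a ubiquitin ligase and lies 2.62 Mb telomeric of the domain, was at −0.86, −0.45, −0.71, −0.76 and −0.6 in wild-type, −0.62, −0.37 and −0.54 in normoglycaemic KO and −1.19, −1.13 and −0.78 (lowest, median, highest) in hypoglycaemic KO livers. Wild-type replicate 1 lay within the hypoglycaemic KO range. The difference was −0.38 ± 0.1 against wild type (adjusted p = 0.103) and −0.55 ± 0.11 against normoglycaemic KO (adjusted p = 0.0819). Exoc3l4, related to a subunit of the exocyst, was at 0.86, 1.81, 1.51, 1.4 and 1.42 in wild-type, 1.52, 1.73 and 1.51 in normoglycaemic KO and −0.13, 0.27 and 1.45 (lowest, median, highest) in hypoglycaemic KO livers, a difference of −0.93 ± 0.24 (adjusted p = 0.111) with overlap. Nudt14, which encodes a pyrophosphatase of UDP-sugars, did not overlap: wild-type libraries had 0.45, 0.89, 0.62, 0.57 and 0.73, and hypoglycaemic KO libraries 0.07, 0.34 and 0.43 as lowest, median and highest value (−0.36 ± 0.09, adjusted p = 0.115). Normoglycaemic KO libraries, at 0.56, 0.71 and 0.78, lay within the wild-type range. Lbhd2 (−1.04 ± 0.25) and Dglucy, a D-glutamate cyclase (−0.58 ± 0.15), also ranked here, the latter with 0.3 at a second probe.

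**Figure D5:**
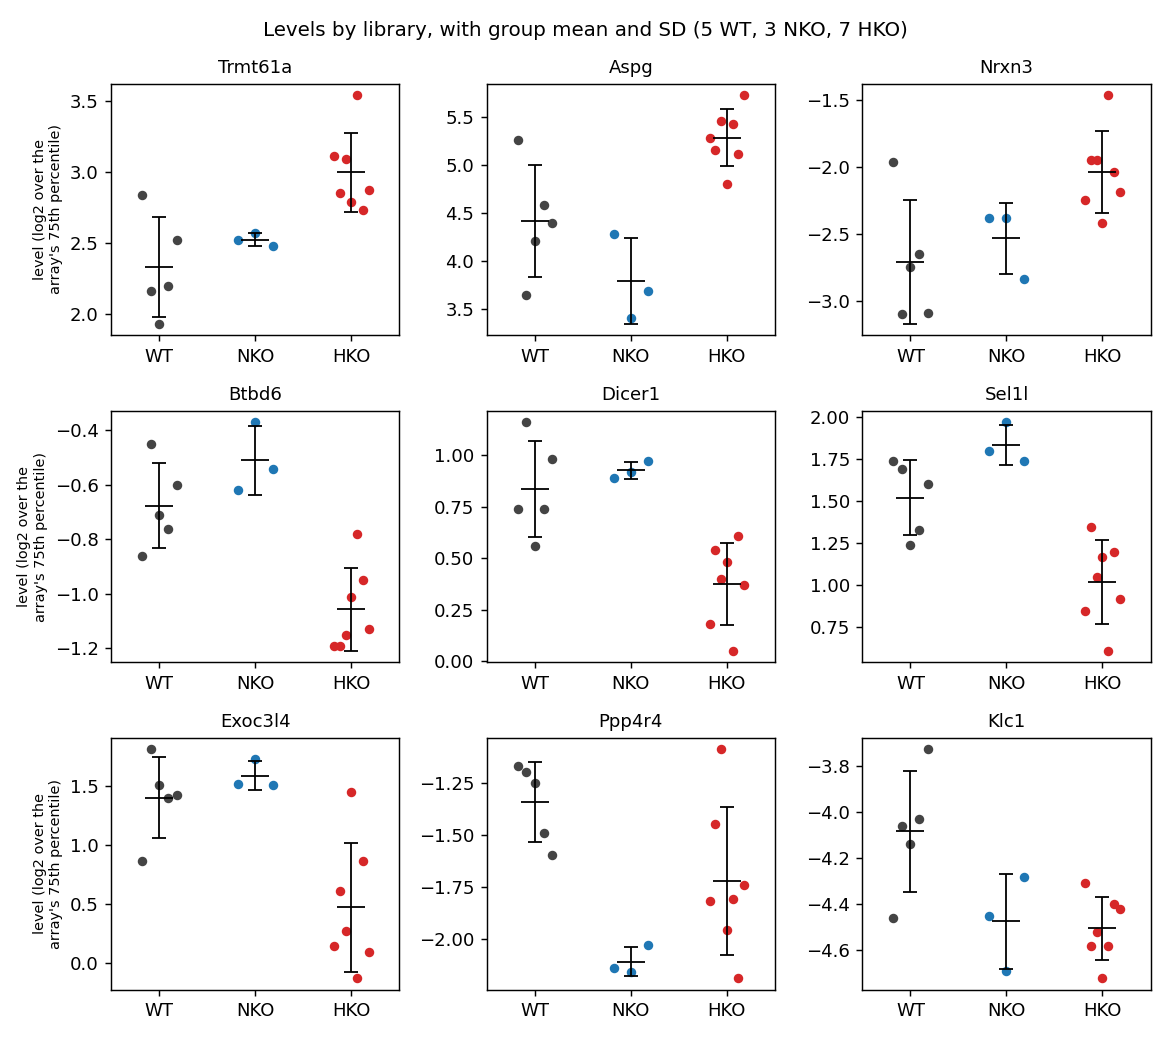
Each point is the level of 1 library (log2 over the array's 75th percentile) for 9 members with small p-values, in wild-type (WT), normoglycaemic KO (NKO) and hypoglycaemic KO (HKO) livers, with group mean and SD. Scales differ between panels; Aspg in hypoglycaemic KO runs from 4.8 to 5.73 and in normoglycaemic KO from 3.4 to 4.28.

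In normoglycaemic KO livers the smallest p-value belonged to Ppp4r4, a regulatory subunit of protein phosphatase 4, 5.15 Mb centromeric of the domain. It was at −1.17, −1.2, −1.25, −1.49 and −1.6 in wild-type replicates 1 to 5 and at −2.14, −2.16 and −2.03 in normoglycaemic KO replicates 1 to 3. The hypoglycaemic KO libraries had −2.19, −1.81 and −1.09 as lowest, median and highest value. All 3 normoglycaemic KO libraries were below all wild-type libraries, and the hypoglycaemic KO libraries covered both ranges. Ppp4r4 was 1.7-fold lower in normoglycaemic KO (−0.77 ± 0.2, adjusted p = 0.964) and 1.3-fold lower in hypoglycaemic KO livers (−0.38 ± 0.16, adjusted p = 0.232), and the mean of both KO groups differed by −0.58 ± 0.15 (adjusted p = 0.692).

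Klc1, a kinesin light chain gene 1.44 Mb telomeric of the domain, was at −4.46, −4.06, −4.14, −4.03 and −3.73 in wild-type, −4.45, −4.69 and −4.28 in normoglycaemic KO and −4.72, −4.52 and −4.31 (lowest, median, highest) in hypoglycaemic KO livers. Its differences were −0.39 ± 0.15 and −0.42 ± 0.12 in normoglycaemic and hypoglycaemic KO livers. Wild-type replicate 1 lay within the range of the KO libraries, and a second, brighter Klc1 probe gave 0.02 ± 0.11 and 0.09 ± 0.09. For Setd3, the histidine methyltransferase of actin, 0.64 Mb centromeric of the domain, 1 probe differed by −0.49 ± 0.17 and 0.04 ± 0.13 and the other by −0.17 ± 0.09 and −0.15 ± 0.07 in normoglycaemic and hypoglycaemic KO livers. Of the genes higher in normoglycaemic KO livers by rank, Clba1 differed by 0.38 ± 0.13, the kinase gene Mok by 0.41 ± 0.17, the phospholipase family gene Pld4 by 0.29 ± 0.13, the Notch ligand gene Jag2 by 0.97 ± 0.44 and Efcab11 by 0.89 ± 0.38. Jag2 and Efcab11 were well above background on 2 and 3 of the 5 wild-type arrays. Every adjusted p of a member in normoglycaemic KO minus wild type was 0.964 or above.

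By role, 73 genes were listed and 72 have a probe in the window, 69 of them tested with the brightest probe of each. No listed gene passed the adjusted threshold. At an unadjusted p under 0.05, 26 of 69 (12 higher, 14 lower) differed in hypoglycaemic KO and 2 in normoglycaemic KO livers. Over all 16662 gene symbols of the array, with the brightest probe of each, the shares were 21.2% and 4.11%, beside 37.7% and 2.9% of the listed genes. The list was written with earlier results of these data known, so its share is not independent of them.

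Of the 5 genes listed under microRNA and RNA processing, 3 were lower and 1 was higher in hypoglycaemic KO livers at that p. Setd3, counted among the lower ones, methylates actin and is not an RNA processing gene, and its other probe gave 0.04. Cpsf2, a subunit of the complex that cuts messenger RNA precursors, differed by −0.41 ± 0.15 and the RNA helicase gene Ddx24 by 0.24 ± 0.09, beside Dicer1 and Setd3 above. Papola, a poly(A) polymerase, differed by −0.17 ± 0.23. Of the 8 genes of protein folding and secretion, Sel1l was lower and Golga5 higher, and the chaperone cofactor gene Bag5 (0.17 ± 0.1) and the proteasome gene Psmc1 (0.09 ± 0.09) were not below that p. Of 9 genes of insulin and growth signalling, 1 was lower and 1 higher at that p, the latter being Gskip, which binds the kinase GSK3 (0.36 ± 0.14). The difference of Akt1 was 0.12 ± 0.07 in the hypoglycaemic and 0.02 in the normoglycaemic group. Of 9 tested metabolic genes Adssl1, of purine nucleotide synthesis, was higher (0.45 ± 0.19), as was Aspg, and Nudt14 was lower.

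Of the 12 tested immune genes 5 were lower and 2 higher in hypoglycaemic KO livers at that p. Asb2, a substrate receptor of a ubiquitin ligase, was at −1.27, −0.95, 0.35, 0.04 and −0.79 in wild-type and at −0.46, −0.56 and −0.43 in normoglycaemic KO livers, and at −2.67, −1.83 and −0.9 as lowest, median and highest value in hypoglycaemic KO livers. The difference was −1.21 ± 0.33 (adjusted p = 0.121), with overlap in the range of wild-type replicates 1 and 2. Tnfaip2, induced by tumour necrosis factor, was at 3.75, 3.69, 3.66, 3.86 and 3.65 in wild-type, 3.66, 3.37 and 3.69 in normoglycaemic KO and 2.97, 3.46 and 3.57 (lowest, median, highest) in hypoglycaemic KO livers, which lay below all wild-type values. Both of its probes differed by −0.35 ± 0.11 (adjusted p = 0.134 and 0.156). The interferon-induced gene Ifi27 differed by −0.35 ± 0.13 and the signalling adaptor gene Traf3 by −0.27 ± 0.1. Tc2n (0.9 ± 0.36) and the lymphoid oncogene Tcl1 (1.49 ± 0.56) were higher, and were well above background on 2 and 1 of 5 wild-type arrays. The 5 markers of T and natural killer cells had a mean level of 1.0 to 1.12 in wild-type libraries, 0.43 to 0.91 in the normoglycaemic group and 0.04 to 0.76 in the hypoglycaemic group, and 4 of the 5 were below an unadjusted p of 0.05 in each comparison with wild type. Their part in the immune genes' values was not tested. Fewer cells of a type and less RNA per cell cannot be told apart in bulk liver RNA.

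In the remaining lists, Mta1, Foxn3 (0.33 ± 0.14), a forkhead factor, and the cyclin gene Ccnk (0.24 ± 0.1) were higher among 9 genes of transcription and translation, and none was lower. Of 9 cytoskeletal and transport genes Evl and Exoc3l4 were lower and the kinase gene Cdc42bpb (0.23 ± 0.1) was higher. Neither of the DNA repair genes Tdp1 (−0.07 ± 0.06) and Xrcc3 (−0.27 ± 0.14) was below that p. Of 5 genes of matrix, Notch signalling and cell contact 1 probe of Flrt2, a cell surface guidance protein, was lower (−1.64 ± 0.51, adjusted p = 0.142) and its other probe differed by −0.22 ± 0.23. Flrt2 at the first of these probes ranged widely within wild type, at −4.07, −3.34, −4.15, −3.62 and −1.53.

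Where a gene had more than 1 tested probe, the signs of the differences often disagreed. Signs were taken after rounding to 2 decimals, so that a difference of 0.0 counted as disagreement. The same count over the whole array was not made. Of 33 such genes 17 had the same sign of difference at all probes in hypoglycaemic KO and 15 in normoglycaemic KO livers. Between the KO groups 23 did. In hypoglycaemic KO livers all probes of 2 genes, among them Tnfaip2, were below an unadjusted p of 0.05, and for 9 genes only some were. The normoglycaemic group had 0 genes with all probes and 3 with some probes below that p.

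The absence of calls among the members depended on single libraries in hypoglycaemic KO minus wild type and in hypoglycaemic minus normoglycaemic KO, while the count for the mean of both KO groups stayed at 0 without any 1 library. Without wild-type replicate 1, 9 members passed an adjusted p under 0.05 in hypoglycaemic KO minus wild type, while 1.81% of all tested probes did, 746 in number. These were Trmt61a (0.79 ± 0.15), Aspg (1.08 ± 0.22), both Nrxn3 probes with small p-values (0.86 ± 0.17 and 0.84 ± 0.18) and Tc2n (1.27 ± 0.28), which rose, and Btbd6 (−0.43 ± 0.1), Dglucy (−0.67 ± 0.15), Klc1 (−0.51 ± 0.11) and Exoc3l4 (−1.07 ± 0.25), which fell. Tc2n was well above background on 2 of 5 wild-type arrays. The second probes of Klc1 and Dglucy gave 0.09 and 0.3 in the fit of all 15 libraries. Without hypoglycaemic KO replicate 4, Exoc3l4 passed alone (−1.09 ± 0.19, adjusted p = 0.041), beside 0.829% of all probes. In hypoglycaemic minus normoglycaemic KO, leaving out that replicate gave 5 members beside 2.36% of all probes: Aspg (1.58 ± 0.29) rose and Sel1l (−0.84 ± 0.16), Btbd6 (−0.56 ± 0.12), Exoc3l4 (−1.28 ± 0.22) and the noncoding transcript B930036G03Rik (−0.77 ± 0.18) fell. Leaving out wild-type replicate 2 gave Aspg alone in that comparison (1.49 ± 0.25, adjusted p = 0.0453), beside 0.219%. Of the 9 members called without wild-type replicate 1, 0 lay within 1 Mb of the domain, where 27.4% of the tested members lie. Among these 9, Trmt61a, Klc1 and Aspg lay just past that limit, between 1 and 2 Mb telomeric of the domain. The limit differs from the class of nearest probes used above, which reached 2 Mb on the centromeric side. B930036G03Rik lies 0.56 Mb from the edge of the domain.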

How the data were processed

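Liver RNA of 15 pups was measured on 2 slides, the first with 2 wild-type, 2 normoglycaemic and 4 hypoglycaemic KO libraries and the second with 3, 1 and 3. Per the file headers, Agilent Feature Extraction 10.10 made the intensity values of the deposited scanner files. The deposited log2 values (40048 probes) were made by the authors with limma, per the submitters' processing notes, and served as an alternative.

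Levels were log2 of the processed signal minus each array's 75th percentile over non-control spots. Outlier spots (176 to 546 per array) were left out and repeat spots averaged. One limma 3.58.1 model in R 4.3.3 with 3 group means was fitted to 41153 probes well above background on 3 or more arrays. The fit had 12 residual and 1.86 prior degrees of freedom. The model was also run on simulated data that used the spread of this fit, with an outcome that is not reported here. Python 3.11.15 with numpy 2.4.6, pandas 2.3.3, scipy 1.17.1 and matplotlib 3.10.9 did the rest. The number of arrays limits the precision.

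Probes were named through the reference table: 194 members by accession, 20 by symbol and 3 by synonym, and 146 kept the file's name. That table (GRCm38.p6) places 215 members on chromosome 12 and 2 elsewhere. Coordinates are mm9, per the file headers.

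Genes were named by these rules: members called; up to 8 genes per direction with the smallest p in each comparison with wild type, with a gene symbol and a signal well above background on all arrays of some group; the 4 nearest such genes on each side; role lists; and members separating all KO from all wild-type libraries. Genes named beside counts of non-overlapping or leave-one-out members were chosen after their values were seen. The members, rules and lists were chosen with earlier results of these data known. Alternatives were quantile and normexp normalization (offset 50), the deposited values, other filters, 1 probe per gene, slide, slide row and replicate blocks, single slides and leaving out each library. Counts without wild-type replicate 1, normoglycaemic KO replicate 2 or hypoglycaemic KO replicate 2 were added after seeing the data. Some genes and a sequence that the rules name are not reported here.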

Additional observations from a re-analysis of the deposited data

Results flagged for a closer look

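For 4 members every hypoglycaemic KO library lay on one side of the wild-type mean and every normoglycaemic KO library on the other. Aspg was higher in hypoglycaemic than in normoglycaemic KO livers by 1.49 (limma, adjusted p = 0.0794), Btbd6 lower, at −0.55 (adjusted p = 0.0819), Dicer1 lower, at −0.55 (adjusted p = 0.105), and Sel1l lower, at −0.81 (adjusted p = 0.0794). None of these differences between the KO groups passed the threshold.

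A single library lay far from the rest of its group in 5 of 90 groups examined by a Dixon test, which chance flags in about 1 in 20 groups. In wild-type replicate 1, Degs2 was at −3.31 (the other 4 at −4.45 to −4.14), Eml1 at 1.32 (1.02 to 1.11) and Hsp90aa1 at 4.69 (4.97 to 5.04). Mok was at −2.06 in wild-type replicate 2 (−2.52 to −2.46), and a second probe of Nrxn3 was at −2.51 in hypoglycaemic KO replicate 5 (−3.29 to −3.08).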

How the results depend on the processing

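The number of members called stayed at 0 in all 4 comparisons with quantile, normexp or deposited values, with no filter or the stricter one, with 1 probe per gene, with slide, slide row or replicate block, and on either slide alone. Slide 1 holds 2 wild-type and 2 normoglycaemic KO libraries, and the only normoglycaemic KO library of slide 2 is assumed to vary like the other groups, so a count of 0 on 1 slide says nothing about stability. Leaving out 1 library gave 0 to 9 for hypoglycaemic KO minus wild type, 0 to 5 for hypoglycaemic minus normoglycaemic KO and 0 for the other comparisons. The replicate numbers were checked as a pairing: deviations of same-numbered samples correlated at −0.167 to 0.249. Differently numbered samples were not compared, so these values cannot tell whether the numbers pair the samples. The replicate block gave 0 calls among members. The count of nearest members at an unadjusted p under 0.05 in hypoglycaemic KO was 10 of 81. It was 4 on slide 1 and 6 to 13 without 1 library. In normoglycaemic KO it was 5 of 81, and 2 to 8 without 1 library. For the mean of both KO groups it was 6 of 81, and 3 with normexp, the slide row block or the replicate block. For that mean it was 3 of 66 with the stricter filter and 2 to 7 without 1 library. Within 2 Mb of the Mirg probe, which is another set of probes, the counts were 17 of 98 in hypoglycaemic KO and 11 of 98 for the mean. Shares of all probes beside these counts were taken only without wild-type replicate 1, normoglycaemic KO replicate 2 or hypoglycaemic KO replicate 2. Mirg kept its sign and side of the threshold where that was tested without each library (−3.46 to −2.85 in hypoglycaemic and −4.06 to −3.88 in normoglycaemic KO).

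Of 64 differences of named genes, 15 changed sign under some setting. With 1 probe per gene Hhipl1 gave −0.27 in hypoglycaemic KO and −0.09 for both KO groups, Klc1 0.02 in normoglycaemic KO and 0.05 for both, Ppp2r5c −0.12 and Wdr20 −0.17 in normoglycaemic KO. On slide 2 alone, Degs2 gave 0.09 and 0.2 in hypoglycaemic and normoglycaemic KO, and Dync1h1 −0.02 and Wdr20 0.15 in hypoglycaemic KO. On slide 1 alone, Cyp46a1 gave −0.06 in hypoglycaemic KO, and Evl 0.02, Eml1 0.01, Dync1h1 0.01, Hsp90aa1 0.12 and Wdr20 −0.08 in normoglycaemic KO. The deposited values gave 0.0 for Eml1, 0.03 for Dync1h1 and 0.01 for Hsp90aa1 in normoglycaemic KO, quantile normalization 0.0 for Dync1h1 in hypoglycaemic and 0.0 for Hsp90aa1 in normoglycaemic KO, and the replicate block −0.01 for Cyp46a1 in hypoglycaemic and 0.04 for Hsp90aa1 in normoglycaemic KO. Without 1 library, hypoglycaemic KO differences ran from −0.01 to 0.06 for Cyp46a1, −0.02 to 0.04 for Dync1h1 and −0.23 to 0.08 for Wdr20, and normoglycaemic ones from −0.09 to 0.09 for Eml1, −0.07 to 0.01 for Dync1h1 and −0.1 to 0.05 for Hsp90aa1. The cause was not tested. Dim probes such as Hhipl1 and Tcl1 were above background on some arrays of a group only.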
